A study of Mus musculus with 9 samples.

Results

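Retrocopies and near-identical gene copies were followed through the 9 libraries of a study of the mouse prefrontal cortex. The members were 10 of the 14444 genes in the deposited matrix: Eno1 and its retrocopy Eno1b, Morf4l1 and Morf4l1-ps1, the duplicated genes Dynlt1a and Dynlt1b, the copies Gm12070, Rpl31-ps12 and Rps15a-ps6, and the parent gene Oaz1. They were matched by symbol, all 10 were found, and no filter on low values was applied. They had been picked because their values lay far apart between these same libraries, so their levels are given as a description with no test. The picking rule named no size of gap. Tests were kept to genes outside the members: the parents Gapdh, Rpl31 and Rps15a, relatives of each family, other pseudogenes and partner genes.

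Total RNA was taken from brain tissue of mice aged 5 to 8 postnatal weeks and depleted of ribosomal RNA. Mice of 3 groups were compared: wild type under saline (WT-1 to WT-3), Shank3 mutants under saline (SAL-1 to SAL-3) and Shank3 mutants given UNC0642 at 1 mg/kg (UNC-1 to UNC-3), with 3 libraries each. UNC0642, an inhibitor of the histone methyltransferases EHMT1 and EHMT2, was injected intraperitoneally once a day for 3 days. The labels name neither the Shank3 allele nor its zygosity, and do not say whether replicate libraries stem from different mice. The p-values below therefore refer to the spread among libraries, part or all of which may be technical.

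A retrocopy arises when a spliced messenger RNA is copied back into DNA and inserted elsewhere in the genome, so that it keeps the exons of its parent and lacks the introns. Most retrocopies are processed pseudogenes, but some keep an open reading frame. Highly expressed housekeeping genes, such as those for glycolytic enzymes and ribosomal proteins, have left many of them in the mouse genome. A read from a stretch that copy and parent share letter for letter cannot be placed from its sequence alone. Reads that hold a differing base, or sequence from inside an intron of the parent, can. A spliced read across an exon junction of the parent also matches a copy without introns.

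The copies were compared with their parents in GENCODE M21 transcripts on the GRCm38 build, another build than the mm9 build named for the deposited files, so no coordinates are given. Eno1 lies on chromosome 4 with 12 exons in the transcript used, and Eno1b has 2 exons and a coding sequence of the same 1305 bases. Morf4l1 lies on chromosome 9 with 12 exons, and Morf4l1-ps1 on chromosome 16 as a single exon. Gapdh, found by sequence to be the parent of Gm12070, lies on chromosome 6 with 7 exons, and Gm12070 on chromosome 11 with 1 exon. Rpl31-ps12 is a single-exon row on chromosome 16 and Rps15a-ps6 one on chromosome 11, while their parents Rpl31 and Rps15a have 5 exons each on chromosomes 1 and 7. Dynlt1a and Dynlt1b both have 5 exons and lie in the same gene cluster on chromosome 17, so they are duplicates of a whole gene and not retrocopies. Oaz1, on chromosome 10, has a near-identical copy on chromosome 17, Oaz1-ps, for which the matrix holds no row.

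The copies differed from their parents at very few bases. Over the aligned coding stretch, Gm12070 had 1 mismatch to Gapdh in 1002 bases (99.9% identity), Morf4l1-ps1 had 2 to Morf4l1 in 969 (99.79%) and Eno1b had 8 to Eno1 in 1305 (99.39%). Rpl31-ps12 had 4 mismatches to Rpl31 in 375 bases (98.93%), and Rps15a-ps6 had 5 to Rps15a in 393 (98.73%), with 1 stop codon inside the reading frame. Dynlt1a and Dynlt1b differed at 1 of 342 coding bases (99.71%), and the coding sequences of Dynlt1c and Dynlt1f, which are not rows here, were identical to that of Dynlt1a. The stretches below show how little separates the members of each pair. Each is 90 bases of the GENCODE M21 transcript, 5′ to 3′, with the differing bases in capitals and positions counted from 1 at the first base printed. The substitutions, with the parent's base first, are C46T in the Morf4l1 pair, G46A in the Gapdh pair, G5A, C61T and G72A in the Rpl31 pair, C19T, T52C and A66G in the Rps15a pair, and C21A from Dynlt1a to Dynlt1b.
Morf4l1: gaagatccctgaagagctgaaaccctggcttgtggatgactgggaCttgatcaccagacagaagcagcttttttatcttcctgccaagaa
Morf4l1-ps1: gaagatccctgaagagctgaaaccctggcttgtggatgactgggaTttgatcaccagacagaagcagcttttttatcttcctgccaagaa
Gapdh: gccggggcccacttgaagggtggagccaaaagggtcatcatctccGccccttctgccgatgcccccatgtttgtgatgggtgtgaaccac
Gm12070: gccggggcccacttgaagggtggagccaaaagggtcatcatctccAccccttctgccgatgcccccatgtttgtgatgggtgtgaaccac
Rpl31: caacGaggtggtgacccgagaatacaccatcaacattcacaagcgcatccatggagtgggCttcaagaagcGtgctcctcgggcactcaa
Rpl31-ps12: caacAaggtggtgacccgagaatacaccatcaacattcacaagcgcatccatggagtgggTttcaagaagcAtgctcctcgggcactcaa
Rps15a: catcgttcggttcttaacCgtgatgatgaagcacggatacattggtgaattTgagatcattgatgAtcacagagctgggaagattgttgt
Rps15a-ps6: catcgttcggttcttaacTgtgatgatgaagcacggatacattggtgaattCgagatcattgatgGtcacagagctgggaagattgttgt
Dynlt1a: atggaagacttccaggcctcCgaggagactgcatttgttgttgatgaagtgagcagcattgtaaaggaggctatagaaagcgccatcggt
Dynlt1b: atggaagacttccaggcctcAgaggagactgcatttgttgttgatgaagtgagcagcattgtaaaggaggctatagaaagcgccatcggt

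How much of a copy is indistinguishable from its parent depends on where these bases fall. The longest run shared without a difference was 725 bases between Eno1b and Eno1, 641 between Gm12070 and Gapdh, 518 between Morf4l1-ps1 and Morf4l1, 321 between Dynlt1b and Dynlt1a, 240 between Rpl31-ps12 and Rpl31 and 136 between Rps15a-ps6 and Rps15a. Cut into all its overlapping words of 50 bases, Gm12070 shared 94.75% of them with Gapdh, Morf4l1-ps1 93.15% with Morf4l1, Dynlt1b 92.83% with Dynlt1a and Eno1b 80.73% with Eno1. Rpl31-ps12 shared 61.96% with Rpl31 and Rps15a-ps6 55.23% with Rps15a. The parents' words were found in transcripts of several other genes, the copies above included where they matched: 222 genes for Gapdh, 25 for Rpl31, 9 each for Eno1, Morf4l1 and Rps15a, 4 for Dynlt1a and 1 for Oaz1. By contrast the paralogs Eno2, Eno3, Morf4l2, Oaz2, Oaz3 and Dynlt3 shared 0.0% of their 50-base words with Eno1, Morf4l1, Oaz1 or Dynlt1a.

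The levels below are in reads per 1000000 of the effective library size (RPM), taken from whole reads recovered from the deposited values (12035098 to 16165483 reads per library), and they are not corrected for gene length. The libraries did not group by label alone. Over all 14444 genes, UNC-3 lay nearer to the wild-type mean than to the saline mutant mean on the log2 scale in 68.0% of genes, against 27.2% for UNC-1 and 29.6% for UNC-2. Markers of cortical neurons were present: the summed level of Slc17a7, Neurod6 and Tbr1, of excitatory neurons, was 1557 to 2210 in all 9 libraries, and Alb of liver and 2 haemoglobin genes are not rows. Oligodendrocyte markers (Mbp, Mog) summed to 1389 to 2223 in wild-type, 721 to 1649 in saline mutant and 1204 to 2269 in UNC0642 libraries. Astrocyte markers (Aqp4, Gja1, Slc1a3) summed to 1044 to 1473, 933 to 1032 and 854 to 1414. Endothelial markers (Cldn5, Flt1) summed to 90.6 to 103.3 in wild-type, 55.5 to 81.0 in saline mutant and 67.7 to 78.8 in UNC0642 libraries. Markers used for hippocampus (Prox1, Wfs1) summed to 98.4 to 125.3, 142 to 153.5 and 130.0 to 139 in these groups. Markers of meningeal fibroblasts (Dcn, Col3a1, Slc6a13) summed to 17.9 to 26.1, 26.4 to 34.9 and 21.4 to 40.3. Wild-type and saline mutant libraries did not overlap for these last 4 lists. Their part in the results below was not tested. In bulk tissue, fewer cells of a type and less RNA per cell cannot be told apart. Shank3 lay at 319 ± 25.13, 338 ± 13.04 and 302 ± 11.91 RPM in the 3 groups (SD, n = 3 each). The labels do not say how the mutation alters the transcript, so these summed reads cannot check it.

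Eno1 encodes alpha-enolase, the glycolytic enzyme that turns 2-phosphoglycerate into phosphoenolpyruvate, and Eno1b, on chromosome 18, is its intact retrocopy. Eno1b had 0, 0 and 2 reads in WT-1 to WT-3, 716, 890 and 804 in SAL-1 to SAL-3, and 706, 962 and 1 in UNC-1 to UNC-3. In RPM this was at most 0.157 in the wild-type libraries and in UNC-3, and between 56.7 and 59.1 in the other 5 libraries. Reads assigned to the copy were thus nearly absent in 4 libraries and at almost the same level in 5, with no library in between. Whether the Eno1b locus itself was transcribed cannot be told from them, since 80.73% of its 50-base words also occur in Eno1. Eno1 itself ran the other way, at 48.8, 44.98 and 33.6 in the wild-type libraries, 18.7, 18.3 and 21.2 in the saline mutants, and 22.4, 20.4 and 42.8 under UNC0642. Wild-type and saline mutant libraries did not overlap for either gene, and UNC-3 again lay with the wild type. Of the reads on the pair, Eno1b took 72.0% to 76.3% in the 5 libraries that carried it, with exact 95% binomial intervals spanning 69.1% to 78.7%, which cover counting error only. In WT-1, 0 of 576 reads fell on the copy, which allows a share of up to 0.521%.

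Within this pair, parent and copy did not balance. The pair leaves out Gm4735, whose transcripts held 91.56% of the 50-base words of Eno1b and 83.12% of those of Eno1. Reads of Gm4735 were not analysed here. From wild type to saline mutant the mean of Eno1b was 57.6 RPM higher and that of Eno1 differed by -23.1, so the lower parent made up 40.1% of the higher copy. Inside the UNC0642 group, UNC-1 and UNC-2 against UNC-3, the copy was 58.4 higher and the parent differed by -21.3, or 36.5% of it. The sum of both was 33.7 to 48.8 in wild-type libraries, 76.2 to 77.9 in saline mutants and 80.2, 79.5 and 42.8 in UNC-1 to UNC-3. The sums, too, did not overlap between wild type and saline mutant. Eno2, the neuronal enolase, had 993 ± 138, 1049 ± 28.6 and 998 ± 80.1 RPM in the 3 groups (SD, n = 3 each). Its log2 difference, saline mutant less wild type, was 0.09 (SE 0.10, adjusted p = 0.551 by limma-voom on recovered reads).

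**Figure D1:**
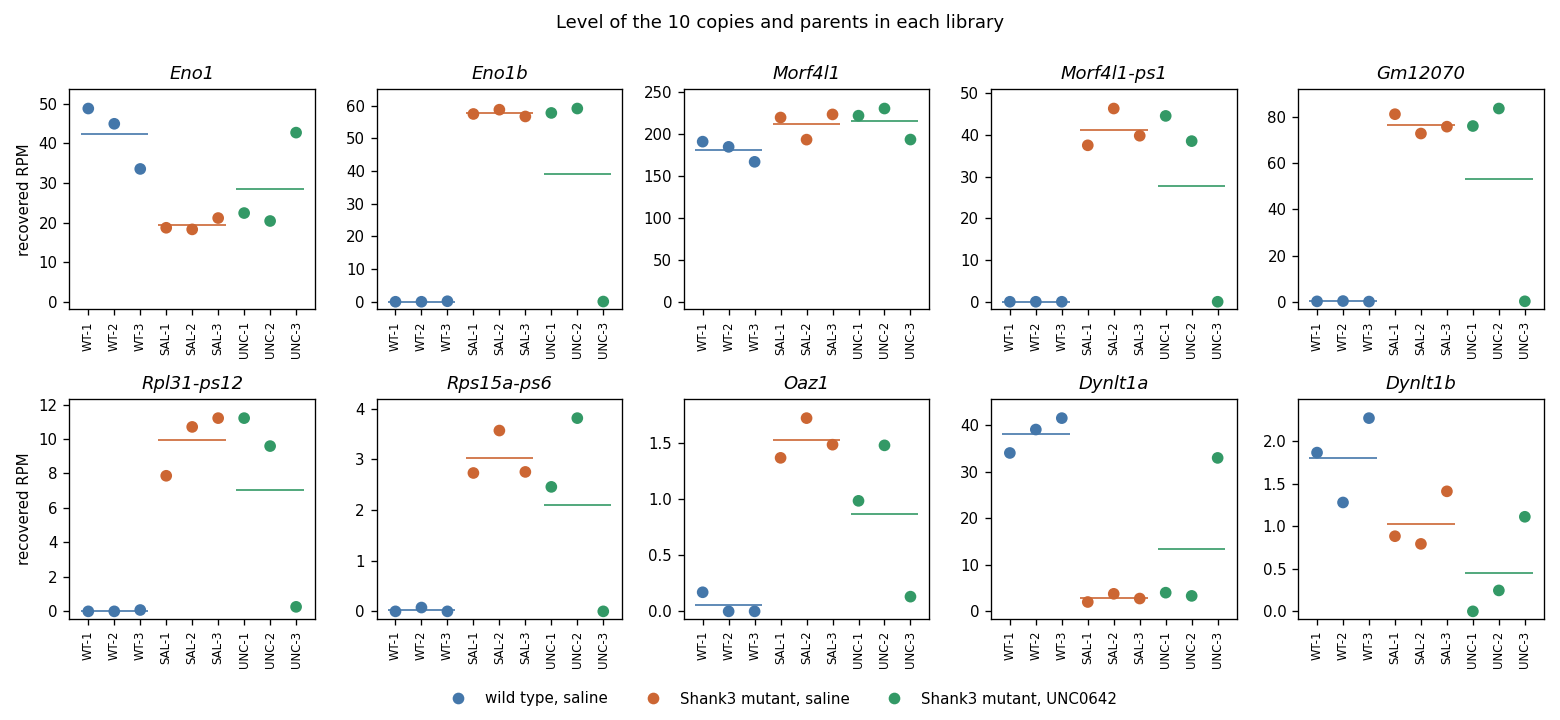
Level of each of the 10 members in recovered RPM (y axes, linear, 1 scale per gene) in the 9 libraries (x axes); points are libraries and short lines are the means of the 3 libraries of a group. Eno1b, Morf4l1-ps1, Gm12070, Rpl31-ps12, Rps15a-ps6 and Oaz1 were near 0 in the wild-type libraries and UNC-3, Eno1 and Dynlt1a were high there, and Morf4l1 and Dynlt1b were less clearly divided.

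Morf4l1 encodes MRG15, a chromodomain protein that binds methylated lysine 36 of histone H3 and sits in both the NuA4 acetyltransferase and Sin3 deacetylase complexes. Its pseudogene Morf4l1-ps1 had 0 reads in WT-1, WT-2, WT-3 and UNC-3, 467, 701 and 564 in SAL-1 to SAL-3, and 544 and 626 in UNC-1 and UNC-2. That is 37.5, 46.3, 39.8, 44.5 and 38.5 RPM in the last 5. With 3 reads per library taken as the floor (0.254 RPM in the shallowest wild-type library), the lowest saline mutant was at least 147-fold higher than the wild type. Morf4l1 was not lower where its copy was high. It had 190, 184 and 166 RPM in the wild-type libraries, 219, 193 and 223 in the saline mutants and 221, 230 and 193 under UNC0642. The lowest saline mutant library, 193, lay only just above the highest wild-type library, 190. The copy took 14.6%, 19.4% and 15.1% of the reads on the pair in SAL-1 to SAL-3 and 16.7% and 14.3% in UNC-1 and UNC-2. In UNC-3, 0 of 2952 reads allows a share of up to 0.102%.

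Copy and parent both lay higher in the saline mutants, by 41.2 and 31.2 RPM on average. The pair summed to 166 to 190 in the wild type and to 239 to 263 in the saline mutants, a ratio of means of 1.4, and to 266, 268 and 193 in UNC-1 to UNC-3. Morf4l2, the paralog that encodes MRGX and shares no 50-base word with Morf4l1, had 239 ± 20.1, 320 ± 14.2 and 299 ± 42.0 RPM (SD, n = 3 each). It was called higher in saline mutants than in wild type on recovered reads (log2 difference 0.43, SE 0.10, limma-voom adjusted p = 0.0239). That call was kept in 4 of the 9 fits that left out a library and was lost with the adjusted set of libraries as a term (adjusted p = 0.993). Here and below, a loss with that term decides little, since the sets part all wild-type libraries from all saline mutant libraries. Only the UNC0642 libraries then separate set from group.

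Gm12070 is a processed pseudogene of Gapdh, the glycolytic glyceraldehyde-3-phosphate dehydrogenase that is often used as a reference gene. It had 2, 4 and 1 reads in WT-1 to WT-3, 1011, 1102 and 1074 in the saline mutants, and 929, 1360 and 3 in UNC-1 to UNC-3. In RPM, the wild-type libraries and UNC-3 lay between 0.0783 and 0.301 and the other 5 between 72.8 and 83.6. Gapdh, which is no member, had 848.5, 737 and 658 RPM in the wild type, 1342, 1351 and 1356 in the saline mutants, and 1324, 1360 and 727 under UNC0642. UNC-3 was within the wild-type range for Gapdh as well, and the 3 saline mutant libraries had an SD of 7.20. The pseudogene took 5.11% to 5.79% of the reads on the pair in the 5 libraries where it was high and at most 0.0408% in the rest.

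The parent was thus higher by 602 RPM where its copy was higher by 76.4. On recovered reads Gapdh was higher in saline mutants than in wild type (log2 difference 0.86, SE 0.18, limma-voom adjusted p = 0.0184), in 3 of 3 libraries. The call did not hold with the adjusted set as a term (0.45, SE 0.30, adjusted p = 0.993), nor without WT-2, WT-3, SAL-1 or SAL-3, where the differences were 0.85, 0.77, 0.86 and 0.86 and the adjusted p reached 0.0918. On the deposited values the difference was 0.17 (SE 0.17, limma adjusted p = 1), but these give each gene the same mean log2 value in both adjusted sets. Between UNC0642 and saline mutants, Gapdh differed by -0.30 (SE 0.18, limma-voom adjusted p = 0.971).

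Rpl31-ps12 and Rps15a-ps6 are copies of genes for proteins of the large and the small ribosomal subunit. Rpl31-ps12 had 0, 0 and 1 reads in the wild type, 98, 162 and 159 in the saline mutants and 137, 156 and 4 under UNC0642, which is 7.87 to 11.2 RPM in the 5 high libraries. Rps15a-ps6 had 0, 1 and 0 reads in the wild type, 34, 54 and 39 in the saline mutants and 30, 62 and 0 under UNC0642, or 2.46 to 3.81 RPM in the same 5. Both copies were high in the same 5 libraries as Eno1b, at a small fraction of their parents' reads: 4.93% to 6.95% of the Rpl31 pair and 1.62% to 2.61% of the Rps15a pair. The parents lay close between groups. Rpl31 had 150, 139 and 160 RPM in the wild type, 152, 156 and 160 in the saline mutants and 150, 150 and 176 under UNC0642, and the groups overlapped. Its log2 difference, saline mutant less wild type, was 0.06 (SE 0.09, limma-voom adjusted p = 0.651). Rps15a had 120, 120 and 129 in the wild type, 139, 138 and 142 in the saline mutants and 149, 142 and 130 under UNC0642, a difference of 0.19 (SE 0.08, limma-voom adjusted p = 0.113). Rps15a-ps4, a less similar copy (97.46% identity, 32.23% of 50-base words shared), had 2.37, 3.46 and 2.74 in the wild type and 2.41, 1.19 and 2.04 in the saline mutants. It was not called (log2 difference -0.67, SE 0.33, limma-voom adjusted p = 0.171).

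**Figure D2:**
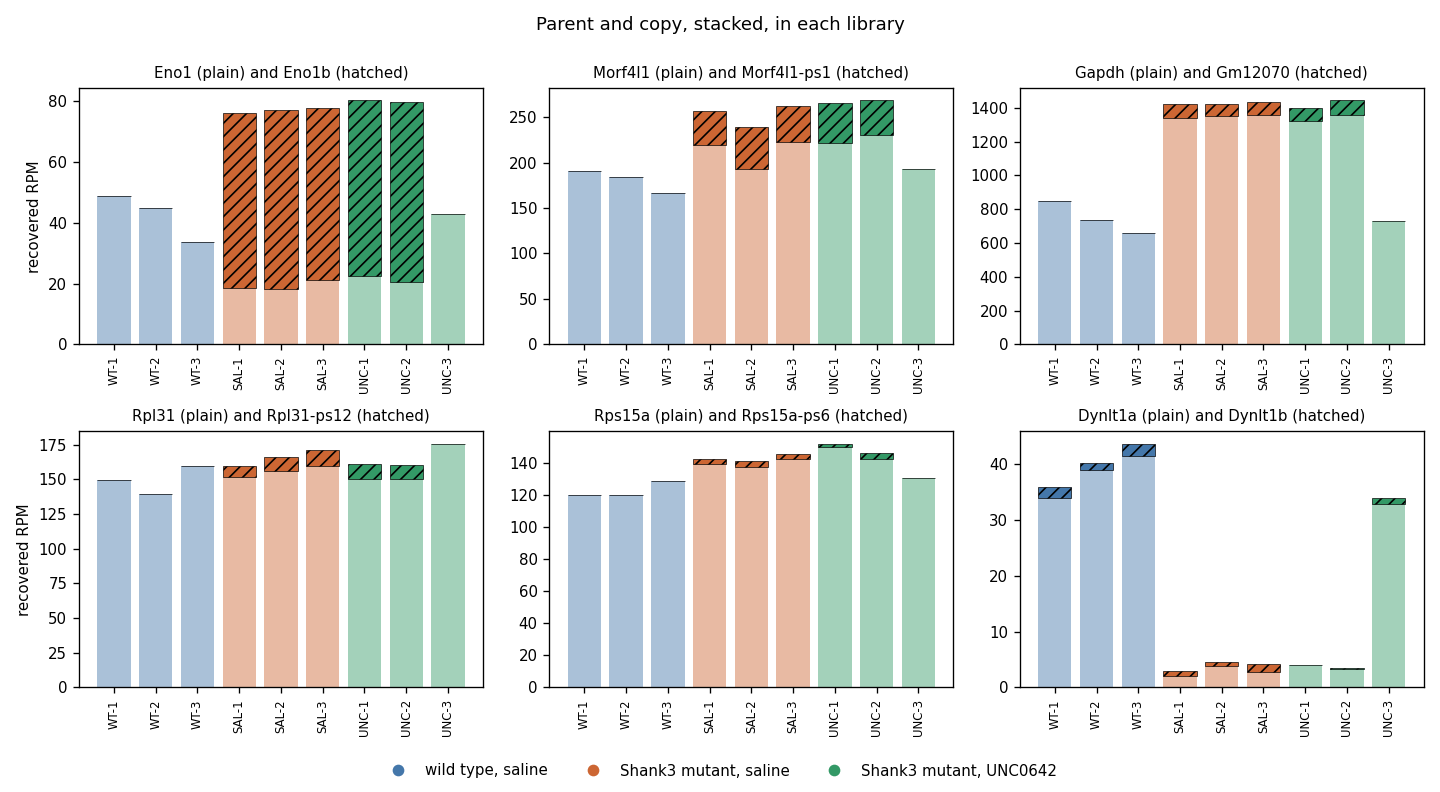
Stacked bars of recovered RPM (y axes, from 0) for parent (plain) and copy (hatched) in each of the 9 libraries (x axes), coloured by group. The sum was higher in the saline mutants, UNC-1 and UNC-2 for the Eno1, Morf4l1 and Gapdh pairs and lower for the Dynlt1 pair, while the Rpl31 sums overlapped between groups.

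Oaz1 encodes antizyme, which binds ornithine decarboxylase and sends it to the proteasome, and its own translation needs a frameshift driven by polyamines. In these data it was almost unread: 2, 0 and 0 reads in WT-1 to WT-3, 17, 26 and 21 in the saline mutants, and 12, 24 and 2 under UNC0642. The 5 higher libraries lay at 0.982 to 1.72 RPM and the others at 0.17 or less. Oaz1-ps differs from Oaz1 by 1 mismatch and 1 gap in 685 aligned columns and shares 92.14% of its 50-base words with it, but its reads were not analysed here. Antizyme 2 is encoded by Oaz2 elsewhere in the genome, and 0.0% of its 50-base words occurred in Oaz1. Oaz2 had 170 ± 10.8, 208 ± 0.709 and 202 ± 15.9 RPM (SD, n = 3 each). It was higher in saline mutants than in wild type on recovered reads (log2 difference 0.30, SE 0.08, limma-voom adjusted p = 0.0344), a call kept in 4 of 9 fits without a library and lost with the adjusted set as a term (adjusted p = 0.993).

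Dynlt1a and Dynlt1b encode the same Tctex-type light chain of cytoplasmic dynein, the motor that carries cargo towards the minus end of microtubules. Of these duplicates, Dynlt1a ran against the retrocopies. Dynlt1a had 401, 519 and 530 reads in the wild type, 25, 57 and 39 in the saline mutants, and 49, 54 and 504 under UNC0642. This corresponds to 34.0 to 41.5 RPM in the wild type, 2.01 to 3.76 in the saline mutants and 4.01, 3.32 and 32.9 in UNC-1 to UNC-3. Dynlt1b stayed low in all libraries, with 22, 17 and 29 reads, then 11, 12 and 20, then 0, 4 and 17. Its wild-type range of 1.28 to 2.27 RPM overlapped the saline mutant range of 0.792 to 1.41. Neither duplicate was higher where the other was lower: the pair summed to 35.9 to 43.7 in the wild type, 2.89 to 4.56 in the saline mutants and 4.01, 3.56 and 34.1 under UNC0642, a ratio of saline mutant to wild type of 0.0968. Dynlt1c and Dynlt1f, identical to Dynlt1a in coding sequence, are not rows, so the sum does not cover the family.

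Neighbours of this cluster were read as well, since Tmem181a precedes Dynlt1a and Tmem181b-ps follows Dynlt1b in the RefSeq order of genes on GRCm38.p6. Tmem181a had 70.5, 72.7 and 72.2 RPM in the wild type, 32.3, 27.8 and 31.6 in the saline mutants and 32.2, 29.2 and 54.0 under UNC0642. It fell by 1.24 on the log2 scale between wild type and saline mutant (SE 0.17, limma-voom adjusted p = 0.00526), and the call was kept in 9 of 9 fits without a library but lost with the adjusted set as a term (adjusted p = 0.993). Tmem181b-ps had 166, 195 and 222 in the wild type and 134, 98.5 and 96.8 in the saline mutants (log2 difference -0.83, SE 0.13, limma-voom adjusted p = 0.0105), with 101, 104 and 91.0 under UNC0642. Tmem181c-ps went the opposite way, with 5.77, 7.82 and 9.23 in the wild type, 33.2, 29.1 and 26.1 in the saline mutants, and 26.4, 25.1 and 4.05 under UNC0642 (log2 difference 1.95, SE 0.56, limma-voom adjusted p = 0.0401). Its call was kept in 3 of 9 fits without a library and that of Tmem181b-ps in 7 of 9, and both were lost with the adjusted set as a term. For Tmem181b-ps, UNC-3 lay with the saline mutants. Dynlt3, which encodes the other Tctex-type light chain and shares no 50-base word with Dynlt1a, had 127 ± 12.5, 143 ± 11.2 and 141 ± 9.92 RPM (SD, n = 3 each) and was not called (log2 difference 0.17, SE 0.09, limma-voom adjusted p = 0.214).

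Across all members, wild-type and saline mutant libraries did not overlap for 9 of the 10 members, 7 higher and 2 lower in the saline mutants. The same was true of 40.6% of all genes, 20.8% higher and 19.8% lower, and since the members were picked on these gaps, nothing is read from their count. For 9 of 10 members UNC-3 was nearer to the wild type, while UNC-1 and UNC-2 were nearer to the saline mutants for 10 of 10. The parent was lower where the copy was higher in 1 of the 5 retrocopy pairs, that of Eno1. In the Morf4l1, Gapdh, Rpl31 and Rps15a pairs the saline mutant mean of the parent was higher than that of the wild type, by 31.2, 602, 6.1 and 17.1 RPM. Inside the UNC0642 group, Rpl31 was lower by 25.3 in UNC-1 and UNC-2 than in UNC-3 while its copy was higher by 10.1. The sums of the Eno1, Morf4l1, Gapdh, Rps15a and Dynlt1 pairs did not overlap between wild type and saline mutant, and those of the Rpl31 pair did, at 139 to 160 against 160 to 171. Copies of these parents that are not rows may hold reads that these sums do not include.

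The deposited values show the same members in another order. They equal the recovered level plus 0.219 (the value given to 0 reads) times a factor for each gene and each of 2 sets of libraries, of which the first holds WT-1 to WT-3, UNC-2 and UNC-3 and the second SAL-1 to SAL-3 and UNC-1. For Eno1b the factor was 8.57 in the first set and 0.117 in the second. Its deposited values were therefore 1.88, 1.88 and 3.22 in the wild type, 6.73, 6.88 and 6.64 in the saline mutants, and 6.76, 509 and 2.44 in UNC-1 to UNC-3, although UNC-2 and SAL-2 had almost equal levels of 59.1 and 58.8 RPM. The high deposited value of UNC-2 thus stands beside a level shared by 5 libraries.

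The other retrocopies and Oaz1 followed suit. UNC-2 was deposited at 320 for Morf4l1-ps1, where the 8 other libraries lay between 1.81 and 5.63, and at 682 for Gm12070, where they lay between 2.42 and 10.01. It was deposited at 41.4 for Rpl31-ps12, at 10.9 for Rps15a-ps6 and at 3.34 for Oaz1, with all other libraries at 2.71, 1.39 and 0.98 or below. For Dynlt1a and Eno1 it was the lowest library, at 1.33 and 15.3, while UNC-3 lay at 12.4 and 32.0. On the deposited scale the copy share of the Eno1 pair was 97.1% in UNC-2 and 18.2% in UNC-1, and on recovered reads it was 74.3% and 72.0%. Tests of group differences on the deposited values called 0.0% of genes in all 3 comparisons (limma, adjusted p under 0.05), with 19, 281 and 1238 genes at an unadjusted p under 0.05 between saline mutant and wild type, UNC0642 and saline mutant, and UNC0642 and wild type. The first of these comparisons cannot be decided on deposited values. Each gene's mean log2 value is equal in both sets, which part the wild-type from the saline mutant libraries.

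**Figure D3:**
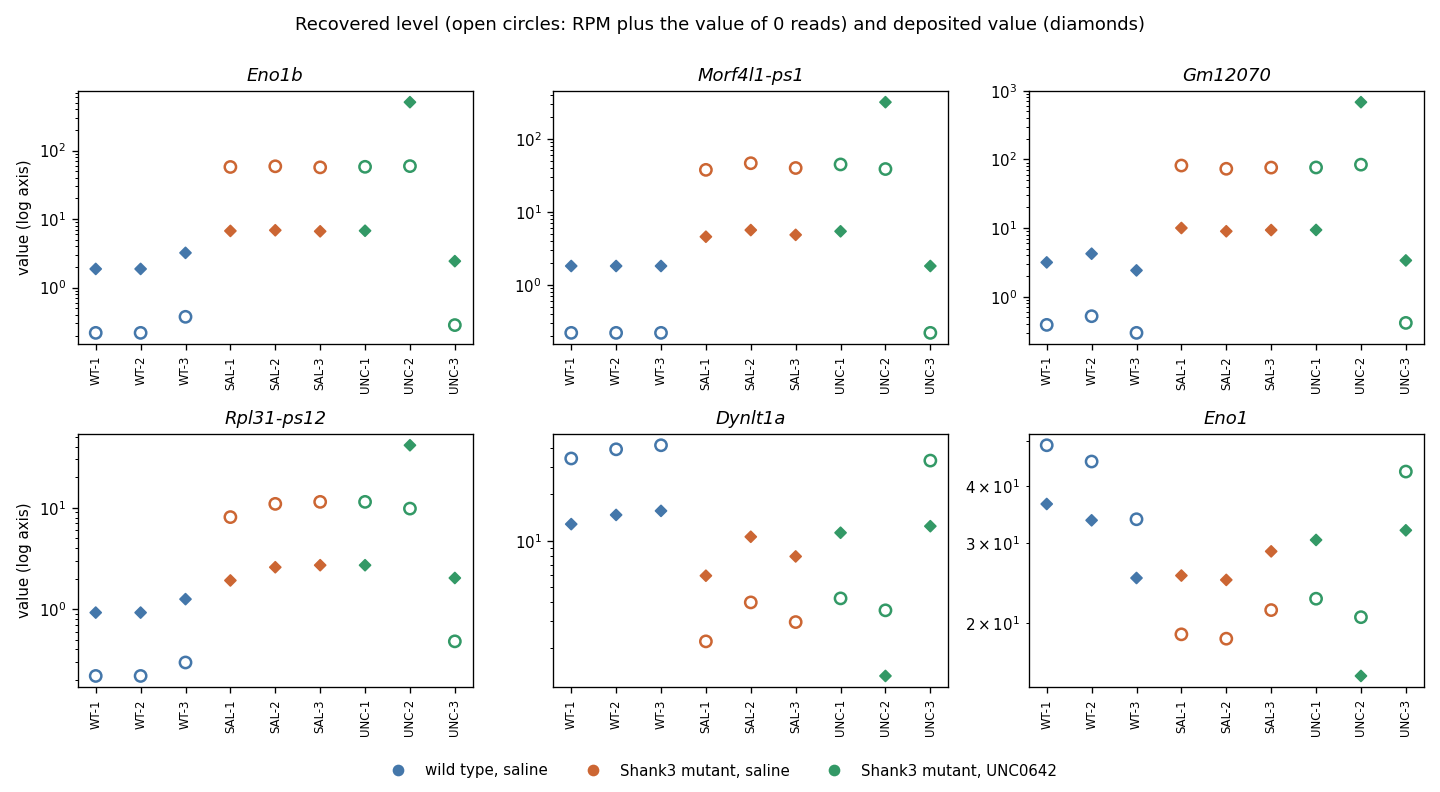
Deposited value (diamonds) and recovered RPM plus 0.219 (open circles) on log y axes for 6 members in the 9 libraries (x axes), coloured by group. For Eno1b, Morf4l1-ps1, Gm12070 and Rpl31-ps12 the circles of UNC-2 lie level with the saline mutants, and its diamonds lie above all others at 509, 320, 682 and 41.4.

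To see how far the pattern of the members extended, the other 47 rows annotated as processed pseudogenes were matched to their closest parent by sequence. On recovered reads, limma-voom called 5.71% of all genes higher and 6.71% lower in saline mutants than in wild type (12.4% in all, 1794 of 14444). That background rests on few libraries. It was 14 and 403 genes without WT-2 and WT-3, 18, 500 and 24 without SAL-1, SAL-2 and SAL-3, and 3619 without UNC-3. With the adjusted set as a term it was 0, but that term parts all wild-type from all saline mutant libraries and leaves little to test.
Of the 47 pseudogenes, 9 were called higher and 1 lower, with 0 to 16 and 0 to 3 in the fits that left out a library and 0 with the set term. Their median log2 difference was 0.42, beside 0.00 over all genes. The pseudogenes were then divided by the share of their 50-base words that also occurred in the parent, with limits chosen after their values were known. In the 23 with under 10% the median was 0.10, with 2 called higher. In the 12 with 10% to under 40% it was 0.59, with 2 called higher and 1 lower, and in the 12 with 40% or more it was 2.75, with 5 called higher (0 to 9 without a library) and 0 lower. Some of the 23 aligned to their closest match over a small part of their length, such as Magef1 (5.8%) and Gm10548 (11.1%), and others over all of it. A low share can thus reflect a partial match, which limits the comparison of these medians. Wild-type and saline mutant libraries did not overlap, with the mutants higher, for 6, 5 and 10 pseudogenes of these sets, beside 20.8% of all genes, and with the mutants lower for 3, 1 and 0, beside 19.8%. The 6 of 23 lay near the share of all genes. In the last set UNC-3 was nearer to the wild type for 12 of 12, UNC-1 for 0 and UNC-2 for 1. The median wild-type level in that set was 0.381 RPM, so many of these copies rest on few reads. It was 2.45 and 2.32 RPM in the sets with under 10% and with 10% to under 40%. Of all 14444 rows, 14425 had a deposited value of 1 or more in at least 3 libraries. A copy near 0 in the wild type may thus be a row only through the libraries where it is high. Nothing is therefore read from the direction of such copies.

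Several of these copies, named after their values were seen, divided the libraries as Morf4l1-ps1 did. BC002163, a copy of Ndufs5 (99.37% identity), had 0 reads in the wild type and UNC-3, 36, 46 and 60 in the saline mutants, and 49 and 70 in UNC-1 and UNC-2 (limma-voom adjusted p = 0.0299). Gm5643, a copy of the splicing factor gene Hnrnpa1, had 0, 1 and 0 reads in the wild type, 40, 52 and 71 in the saline mutants, and 54, 76 and 0 under UNC0642 (adjusted p = 0.0375), while Hnrnpa1 itself differed by -0.25 on the log2 scale (SE 0.24, adjusted p = 0.482). Gm15421, a copy of Rpl22l1, had 0, 1 and 2 reads, then 27, 36 and 28, then 32, 24 and 4 (adjusted p = 0.0173). The calls of BC002163, Gm5643 and Gm15421 were kept in 3, 3 and 6 of 9 fits without a library. These copies, like Gm5177 below, may be rows only through the libraries where they are high. Nothing is therefore read from their calls. High likeness did not always come with the pattern. Gm1943, whose sequence occurs whole within that of Wdr70, had 9.17 RPM in the wild type and 11.0 in the saline mutants on average (log2 difference 0.26, adjusted p = 0.325). Gm5177, which aligned to its closest match Gm10358 over 33.7% of its length and shared 0.83% of its words with it, lay at 0.132 in the wild type and 6.10 in the saline mutants (log2 difference 5.56, adjusted p = 0.031, kept in 3 of 9 fits without a library). Of the 36 parents of these 47 pseudogenes that are rows, 13 were called higher and 0 lower, beside 5.71% and 6.71% of all genes (0 to 18 higher and 0 to 1 lower without a library), with a median log2 difference of 0.23. Of the 13 called, 7 are cytosolic ribosomal protein genes, the class counted among the partners of the members.

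**Figure D4:**
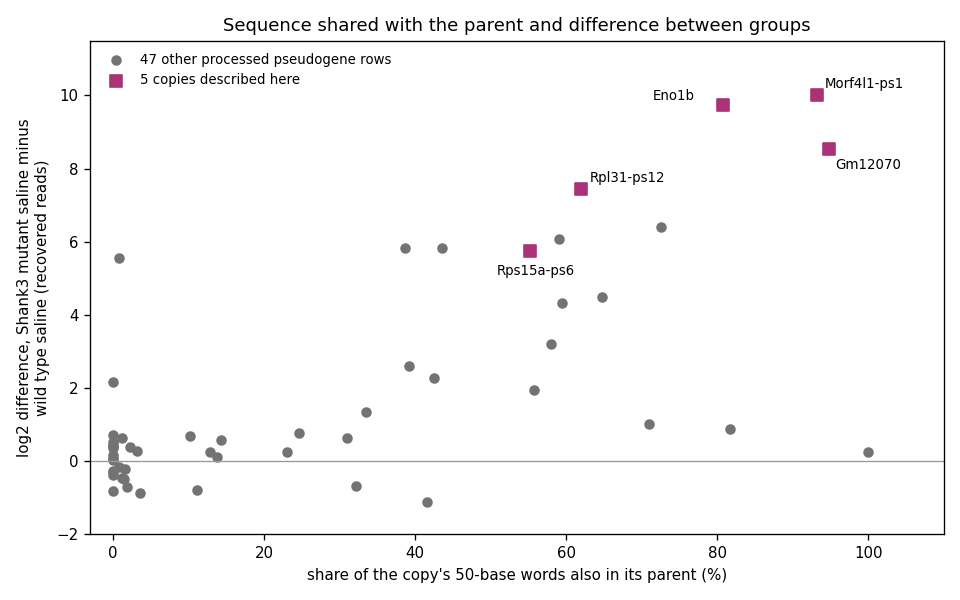
Share of a copy's 50-base words that also occur in its parent (x axis, percent) against the log2 difference, saline mutant less wild type, in recovered reads (y axis), for 47 other processed pseudogenes (grey) and 5 members (purple squares). Below 10% the 23 grey points have a median of 0.10 and at 40% or more the 12 grey points have a median of 2.75. The members were picked for large gaps, and fitted values of genes at or near 0 reads depend on the prior count. Copies near 0 in the wild type may be rows only through the libraries where they are high.

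Among the 23 rows whose symbols end in -ps or -ps and a number, 3 were members, and these had the 3 widest gaps between the highest and the lowest library (6.55, 4.55 and 3.11 on the log2 scale of RPM plus 0.5). Since the members were picked for large gaps, nothing is read from this rank. The 5 of the other rows with a parent in the matrix and the widest gaps were Smarca5-ps (1.71), Bambi-ps1 (1.41), Pisd-ps1 (1.28), Rps15a-ps4 (1.23) and Rps19-ps3 (1.09). These rows, too, were picked for gaps between the same libraries, so nothing is read from their calls. Smarca5-ps resembled the members, with 1, 3 and 2 reads in the wild type, 11, 16 and 20 in the saline mutants and 8, 22 and 2 under UNC0642 (limma-voom adjusted p = 0.0429, kept in 3 of 9 fits without a library). With so few wild-type reads, Smarca5-ps may be a row only through the libraries where it is high. Its parent Smarca5, a chromatin remodelling ATPase, differed by -0.03 (SE 0.09, adjusted p = 0.862). Pisd-ps1 went the other way at a far higher level, with 239.9, 285 and 357 RPM in the wild type, 206, 205.5 and 146.5 in the saline mutants and 218.9, 149.2 and 226 under UNC0642 (log2 difference -0.66, SE 0.17, limma-voom adjusted p = 0.032, kept in 4 of 9 fits without a library and lost with the adjusted set as a term). Bambi-ps1, Rps15a-ps4 and Rps19-ps3 were not called. Just outside the members by gap lay Tmem181c-ps (2.89), whose parent symbol is not a row.

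The genes with values most like those of Eno1b and Morf4l1-ps1 were mostly not matched to a parent, but outside the members only pseudogene rows were searched for one. By Pearson's r of log2 deposited values over the 9 libraries, which share their depth and sets, the nearest to Eno1b were Bsg (0.994), Tuba1b (0.993), AV051173 (0.993), Uchl1os (0.993) and Cxx1b (0.991). The nearest to Morf4l1-ps1 were Tuba1b (0.996), Bsg (0.995), BC002163 (0.994), Uchl1os (0.993) and Rpl37rt (0.993). On recovered levels these r values were 0.994 to 0.999. Bsg, which encodes the membrane glycoprotein basigin, had 296, 300 and 300 RPM in the wild type, 424, 421 and 412 in the saline mutants, and 422, 415 and 303 under UNC0642. Tuba1b, an alpha-tubulin gene, had 145, 141 and 142, then 270, 269 and 269, then 278, 265 and 147. Both genes divided the libraries as the retrocopies did, but with a far smaller fold and at far higher levels. Bsg and Tuba1b were called higher in saline mutants (log2 differences 0.49 and 0.92, SE 0.11 and 0.17, limma-voom adjusted p = 0.0201 and 0.0169), kept in 5 and 6 of 9 fits without a library and lost with the adjusted set as a term. Both were picked for likeness to members that had been picked for gaps between these same libraries. Nothing is therefore read from their calls. Rpl37rt matched Rpl37 at 99.71% identity over 50.4% of its length and shared 38.7% of its 50-base words with it. It had 3, 2 and 1 reads in the wild type, 101, 178 and 171 in the saline mutants and 114, 188 and 2 under UNC0642. Rpl37rt was not called (limma-voom adjusted p = 0.0754).

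The partners of the members' products were counted on the same recovered reads, for saline mutant against wild type, where 5.71% of all genes were called higher and 6.71% lower. Of 17 glycolysis genes outside the members, 3 were called higher and 0 lower, namely Tpi1, Gapdh and Ldha, which encode triosephosphate isomerase, glyceraldehyde-3-phosphate dehydrogenase and lactate dehydrogenase A. The median log2 difference was 0.22, beside 0.00 over all genes, and 0 to 8 were called higher in the fits without a library. Of 81 cytosolic ribosomal protein genes, 41 were called higher and 0 lower, with a median of 0.27 (0 to 55 higher without a library). Among the 41 was Rps4l, which is annotated as a processed pseudogene and was also counted among the 47 pseudogenes above. Of 26 genes of MRG15 complexes, Morf4l2 was called higher and Ash1l, a histone methyltransferase gene, lower, with a median of 0.01. Of the 12 polyamine genes of 15 listed that are rows, Oaz2 and the spermidine synthase gene Srm were called higher (median 0.08). The counts of these last 2 lists, 2 of 26 and 2 of 12, lay near the 12.4% of all genes called. Of 22 of 23 listed genes of cytoplasmic dynein and its partners, Dync1i1, Dynlrb1, Dctn2, Dctn3 and Dctn6 were called higher and Dync1h1, the heavy chain, lower (median 0.16). In each of these 5 lists, no call remained with the adjusted set as a term, and 0 were called higher without SAL-1. Between UNC0642 and saline mutants limma-voom called 0.0% of all genes (539 at an unadjusted p under 0.05) and between UNC0642 and wild type 0.0762%.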

How the data were processed

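Each deposited value is a signal that the authors derived from stranded total RNA libraries (per the labels' protocols), above 0, for 1 gene in 1 of 9 libraries. The submitters' processing notes name cutadapt, TopHat2, HTSeq and mm9, with versions, strand setting and normalization not given in the sources used here. All 9 single-library files equalled the matrix. Each gene's mean log2 value was equal, within 2.5e-09, in 2 sets of 5 and 4 libraries. Whole reads were therefore recovered by solving for the shift between these sets (100% of values whole within 0.02 reads, largest distance 4e-05, 0 reads read as 0.219). Of 14444 symbols, 13895 were in GENCODE M21. Copies and parents were aligned with BLAST+ 2.17.0 and Biopython 1.88.

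Deposited values were tested as log2(value + 0.5) by limma with an intensity trend (version 3.58.1 under R 4.3.3), with all 9 libraries and group as the only term. Recovered reads were tested by limma-voom, and p-values were adjusted over all genes by Benjamini-Hochberg at a threshold of 0.05. The recovery and both fits were tested on simulated data. Members, lists and alternatives were chosen with earlier results of these data known. Named genes were all members, their parents and families, the 5 other -ps pairs with the widest gaps, the 5 nearest patterns to Eno1b and to Morf4l1-ps1, and partner lists. Neighbours, other single pseudogenes, list members called and the pairs of the closing section were named after their values were seen. In the marker lists, 2 genes are not reported here and not summed. Alternatives were pseudocounts of 0.1 and 1, a filter (value 1 or more in 3 or more libraries), median-of-ratios factors, fits of 2 groups, a replicate block, each library left out, and limma-voom on recovered reads. Variants of the last were added after seeing the data: read totals as library sizes, the adjusted set as a term, the block, and each library left out.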

Additional observations from a re-analysis of the deposited data

How the results depend on the processing

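On deposited values, limma called 0 genes between saline mutant and wild type and 5 with only these 2 groups in the fit. Limma-voom on recovered reads called 1794 there, 0 with the adjusted set as a term, and 14 to 3619 without 1 library. Between UNC0642 and wild type, 0 genes were called on deposited values, 0 to 4 without 1 library (4 without UNC-1), and 11 on recovered reads. The latter became 2 with the adjusted set as a term, 50 with the replicate block and 1 to 2958 without 1 library (2958 without UNC-3). The other alternatives stayed within 1.5 times. The cause was not tested. For saline mutant against wild type, neither the deposited values nor the set term can decide, since both rest on sets that part these groups. Same-numbered libraries deviated together with correlations of -0.19 to 0.321, so the numbers were not taken as pairs; with the replicate block, saline mutant against wild type gave 0 genes on deposited values and 2441 on recovered reads. On deposited values the copy share of the Eno1 pair was 20.9% in SAL-1 (75.4% on recovered reads), 18.2% in UNC-1 (72.0%) and 97.1% in UNC-2 (74.3%). No groups had 4 or more libraries, so no library could be tested as an outlier. Copies with under about 3 reads in a library are limited by depth.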

Other observations

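A few pairs outside the members, named after their values were seen, divided the libraries in the same way. Uchl1os, the antisense transcript of the ubiquitin hydrolase gene Uchl1, had 156, 163 and 168 reads in the wild type, 623, 721 and 699 in the saline mutants and 671, 740 and 201 under UNC0642 (log2 difference, saline mutant less wild type, 1.93, SE 0.44, limma-voom adjusted p = 0.021). Uchl1 differed by 0.37 (SE 0.11, adjusted p = 0.0423). The strand setting of the counting is not given in the sources used here, so reads of the 2 genes cannot be told apart with certainty. Ubb, a polyubiquitin gene, and its pseudogene Gm1821 were higher together, by 1.05 and 0.89 (SE 0.26 and 0.20, limma-voom adjusted p = 0.0277 and 0.0209). Cxx1a, Cxx1b and Cxx1c, near relatives on the X chromosome, differed by 0.79, 0.99 and 0.32 (SE 0.18, 0.22 and 0.10, limma-voom adjusted p = 0.0211, 0.0202 and 0.0431). These calls were kept in 3 to 5 of 9 fits without a library and lost with the adjusted set as a term. Uchl1os and Cxx1b were also among the nearest patterns to the members, which were picked on these libraries. Nothing is therefore read from these calls.

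Tuba1c, the closest parent found for Gm6682, did not keep to this division. It had 4, 2 and 2 reads in the wild type, 47, 336 and 380 in the saline mutants, and 19, 329 and 280 under UNC0642, so that UNC-3 lay with SAL-2, SAL-3 and UNC-2 and the lowest mutant libraries were UNC-1 and SAL-1. Gm6682 itself had 0, 5 and 6 reads in the wild type, 108, 180 and 235 in the saline mutants, and 140, 235 and 3 under UNC0642. Neither was called on recovered reads (limma-voom adjusted p = 0.112 and 0.0956).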
